A study of Mus musculus with 9 samples.

Results

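The 3 wild-type (WT) libraries of a 9-library mouse kidney series were described on their own, as the transcript baseline of the adult whole kidney. They were chosen by their labelled genotype, and the other 6 libraries, in which Ybx1 was altered, were not used. The WT animals were C57Bl/6N mice from a commercial breeder, taken at 16 weeks of age, with no allele or agent in their labels. Polyadenylated RNA was sequenced from renal tissue. Whether the libraries stand for different mice is not stated, nor are sex and batch, so the spread given here is between these 3 libraries and may be partly technical. WT 1, WT 2 and WT 3 held 37259488, 35565685 and 41237674 gene counts.

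The kidney filters blood in the glomerulus, whose outer layer is made of podocytes, and then recovers most of the filtrate along the tubule. The proximal tubule takes back glucose, phosphate, amino acids and filtered protein, secretes organic anions, makes glucose and burns fatty acids in its many mitochondria. The thick ascending limb and distal tubule recover salt without water, and the collecting duct adjusts water, sodium and acid under hormonal control.

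Levels are given as CPM, the count of a gene divided by all counts of its library and scaled to a total of 1000000. A share of counts is the same quantity in percent. Genes were ranked by CPM, which is a ranking of counts in which longer transcripts gain, so that a gene said to lead a list is the one with the most counts. Ratios of levels between genes are given only as CPM per kilobase of exon length, taken from the GENCODE annotation of the mouse build mm10. Errors are SDs over 3 libraries. In whole-tissue RNA, fewer cells of a type and less RNA per cell cannot be told apart.

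Library WT 2 stood apart from WT 1 and WT 3. Among the 9373 genes with a mean of at least 10 CPM, 1634 differed by more than 2-fold between WT 2 and WT 1 and 1952 between WT 2 and WT 3, against 16 between WT 3 and WT 1. Short genes had the higher and long genes the lower CPM in WT 2, as the classes of exon length show. For this reason gene levels and list shares are given for all 3 libraries in the order WT 1, WT 2, WT 3. Of all 14252 genes with a mean of at least 1 CPM, WT 2 was the lowest library for 47.0% and the highest for 44.0%, and counts of list members lowest or highest in WT 2 are to be read against these shares.

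Counts were concentrated in few genes. Of 52182 gene symbols listed, 26001 had at least 1 count, 14252 had a mean of at least 1 CPM, 1912 of at least 100 CPM and 97 of at least 1000 CPM. The single highest gene of each library held 2.98, 3.82 and 2.83% of its counts, the 10 highest held 10.7, 11.6 and 10.1% and the 100 highest held 28.2, 28.2 and 27.5%. The 50% mark was reached with 577, 526 and 609 genes. The concentration was thus nearly the same in the 3 libraries, although their leading genes were partly different. Of the 100 highest genes, 94 were shared by WT 1 and WT 3, 77 by WT 1 and WT 2, and 73 by all 3 libraries.

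**Figure D1:**
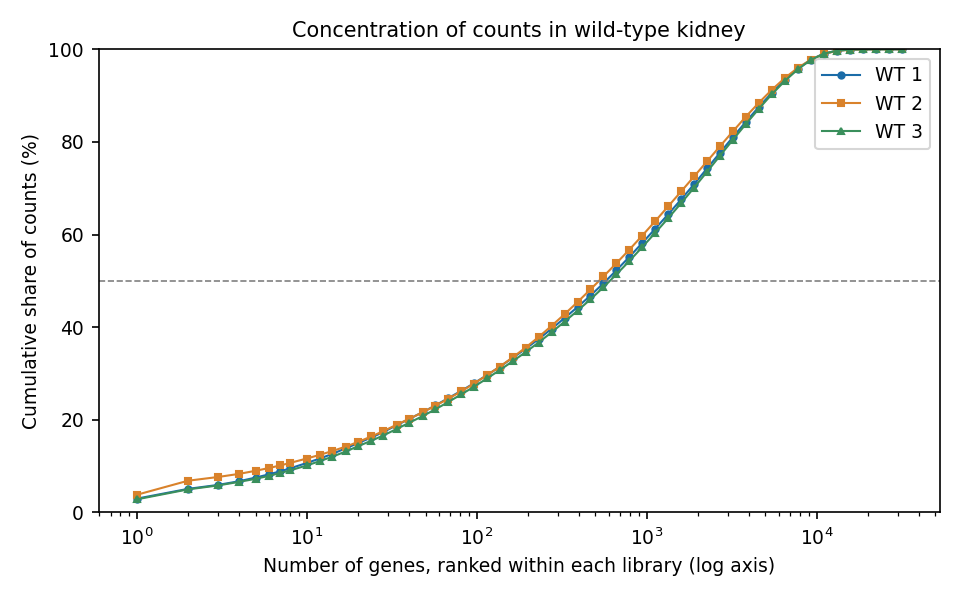
Cumulative share of counts (y axis, percent) against the number of genes ranked within each library (x axis, log scale), with a dashed line at 50%. The curves of WT 1, WT 2 and WT 3 nearly coincide and cross the dashed line at 577, 526 and 609 genes.

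Gpx3 and Kap led the ranking in every library. Gpx3, the secreted plasma glutathione peroxidase, a selenoprotein made mainly in the kidney (chromosome 11, 54902453 to 54910377 in mm10), was at 29779, 30299 and 28302 CPM, a mean of 29459.9 ± 1036 CPM (SD, n = 3). Kap, the kidney androgen-regulated protein of the proximal tubule (chromosome 6, 133849851 to 133853762), was at 21131, 38175 and 21438 CPM, a mean of 26915 ± 9753 CPM (SD, n = 3). The values of Gpx3 lay close together, whereas Kap was higher in WT 2 and there outranked Gpx3. Kap has under 1000 bases of exons, and genes of that class had a median log2 ratio of CPM of 0.91 between WT 2 and WT 1. The part of length in the difference for Kap was not tested. The 95% Wilson interval for Kap in WT 1 ran from 21085 to 21177 CPM, so counting error was small beside the difference for Kap. Intervals and limits for a count of 0 cover counting error only.

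Below this pair the levels dropped steeply. Slc34a1, the sodium-phosphate cotransporter of the proximal brush border (chromosome 13, 55398187 to 55415592), was next by mean at 8446, 4018 and 8495 CPM, with WT 2 at the lowest value. Acsm2, a mitochondrial acyl-CoA synthetase for medium-chain acids (chromosome 7, 119554340 to 119600690), was at 5806, 5553 and 6404 CPM. Fth1, the ferritin heavy chain that stores iron, was at 5644, 6657 and 5239.7 CPM. These 3 genes kept a place among the 12 highest in all 3 libraries.

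The rest of the 25 highest genes had varied roles. Fxyd2, a regulatory subunit of the sodium pump, was at 2772, 4857 and 2458 CPM, and WT 2 was the highest library. Slc27a2, a fatty acid transporter with acyl-CoA synthetase activity, was at 4494, 3299 and 4365 CPM, and Umod, the urinary protein uromodulin of the thick ascending limb, was at 4576, 2890.3 and 4043 CPM. Selenop, the selenium carrier, was at 3677, 8021 and 3919 CPM, and Gpx1, the cytosolic glutathione peroxidase, was at 2685, 5546 and 2683 CPM. Both of these selenoprotein genes were higher in WT 2 than in the other 2 libraries. Together the 25 genes held 16.0% of counts as a mean of the 3 libraries, with 19 on autosomes, 6 in the mitochondrial genome and none on X or Y.

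**Figure D2:**
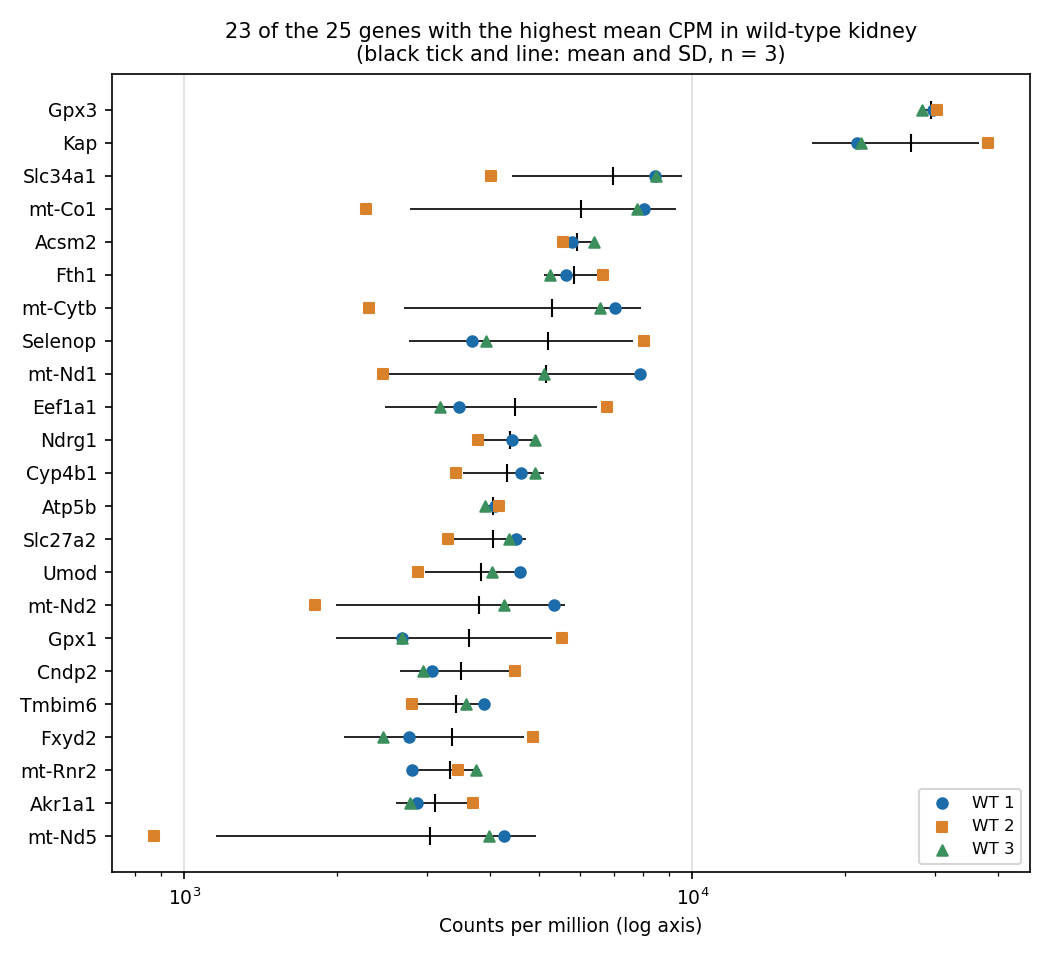
CPM (x axis, log scale) of 23 of the 25 genes with the highest mean, with a symbol for each library and a black tick and line for the mean and SD (n = 3). Gpx3 and Kap lie apart at the top, and WT 2 (orange squares) lies apart from the other libraries for the mitochondrial protein genes, which it has lower, and for Kap, Selenop, Eef1a1 and Gpx1, which it has higher.

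Scaled by length, the order of the leading genes changed. Kap was highest at 29888, 53995 and 30323 CPM per kilobase, followed by Gpx3 at 16425, 16712 and 15611 CPM per kilobase. Within a library Kap was 1.82 to 3.23 times as high as Gpx3 per kilobase. The next 4 were the mitochondrially encoded mt-Nd1, mt-Cytb, mt-Co1 and mt-Nd2, and the 10 highest also held Gpx1 (1864, 3849 and 1862 CPM per kilobase), the predicted gene Gm26377 and the mitochondrial rRNA gene mt-Rnr2. With the longest transcript in place of the merged exon length, 8 of the 10 genes stayed among the 10 highest. Gm26377 is annotated with 108 bases only, so its value per kilobase rests on a very short model. The calcium-binding S100g, at 607, 1042 and 567 CPM, ranked 150 by CPM, but its 480 bases of exons put it at 1265, 2170.5 and 1181 CPM per kilobase.

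Promoters of the leading genes were compared with all promoters for the TATA motif. It was searched as the letters TATAAA on both strands in RefSeq windows of 300 bases, 250 before and 50 after each start site (build GRCm38.p6). It was found in 5 of 17 windows of the 25 highest genes (29.4%), which cover the 13 genes with an entry. The share was 17 of 87 windows for the 100 highest genes (19.5%), 68 of 498 for the 500 highest (13.7%), 13.6% over all 32851 windows, and 7.37% over windows of genes with a mean of at least 1 CPM. The share for the 500 highest genes was thus that of all windows, but above that for genes with a mean of at least 1 CPM. With so few windows the shares for the leading genes are a description and were not tested. The GC-box letters GGGCGG, on either strand, were in 49.4% of windows of the 100 highest genes, 60.7% of windows of genes at or above 1 CPM and 35.7% of all windows. The letters CCAAT were in 32.2, 36.9 and 37.4% of these same 3 sets, and CAAAGTCCA, a form of the HNF4 motif, in 1.15, 0.440 and 0.475%. For CAAAGTCCA the 1.15% was 1 of 87 windows, and it was in 0 of the 17 windows of the 25 highest genes. No motif searched contains another.

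The 100 bases before the RefSeq start site are shown for 3 leading genes of the proximal tubule with the motif and for Gpx3 and Slc34a1 without it, 5′ to 3′ on the strand of the gene, with a match to TATAAA in capitals. The window of Kap is chr6:133853668-133853767 on the minus strand, that of Acsm2 chr7:119554240-119554339, that of Miox chr15:89334373-89334472 that of Gpx3 chr11:54902754-54902853 and that of Slc34a1 chr13:55399548-55399647, all on the plus strand. Miox, which opens the inositol ring, is a proximal tubule enzyme at 2728, 2871 and 2603 CPM.
Kap: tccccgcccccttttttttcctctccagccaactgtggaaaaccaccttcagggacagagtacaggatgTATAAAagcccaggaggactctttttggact
Acsm2: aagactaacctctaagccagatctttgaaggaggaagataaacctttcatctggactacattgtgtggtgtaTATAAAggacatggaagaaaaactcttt
Miox: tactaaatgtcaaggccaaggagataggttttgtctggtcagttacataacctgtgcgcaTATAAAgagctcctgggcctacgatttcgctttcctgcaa
Gpx3: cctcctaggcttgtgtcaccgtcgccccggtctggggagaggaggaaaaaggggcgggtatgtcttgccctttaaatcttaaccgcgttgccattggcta
Slc34a1: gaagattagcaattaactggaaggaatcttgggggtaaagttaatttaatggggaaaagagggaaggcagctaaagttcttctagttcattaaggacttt
The motif began 31 bases before the start site in Kap, 28 in Acsm2 and 40 in Miox. A match is a description of the letters and not of a bound site, and a missing match covers this window only. The same stretch held no match before a further start of Acsm2 and before the start of Umod, so leading genes were found with and without the motif.

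Markers of every nephron segment were detected, as the kidney label calls for. The 36 proximal tubule markers together held 7.44, 7.99 and 7.56% of counts, and all of them were above 10 CPM. Without Kap the other 35 held 5.32, 4.17 and 5.42%. The 23 loop of Henle markers held 1.02, 0.669 and 0.910%, the 42 markers from the distal convoluted tubule to the collecting duct 0.956, 1.08 and 0.908% and the 31 glomerulus markers 0.144, 0.0726 and 0.148%. Fxyd2 alone supplied 34.2% of the share of those 42 markers on average. That share was highest in WT 2, yet 28 of the 42 were lowest there, against 47.0% of all genes at or above 1 CPM. Some markers are shared between segments, and a share depends on the length and number of the genes listed, so these are shares of counts and not of cells.

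**Figure D3:**
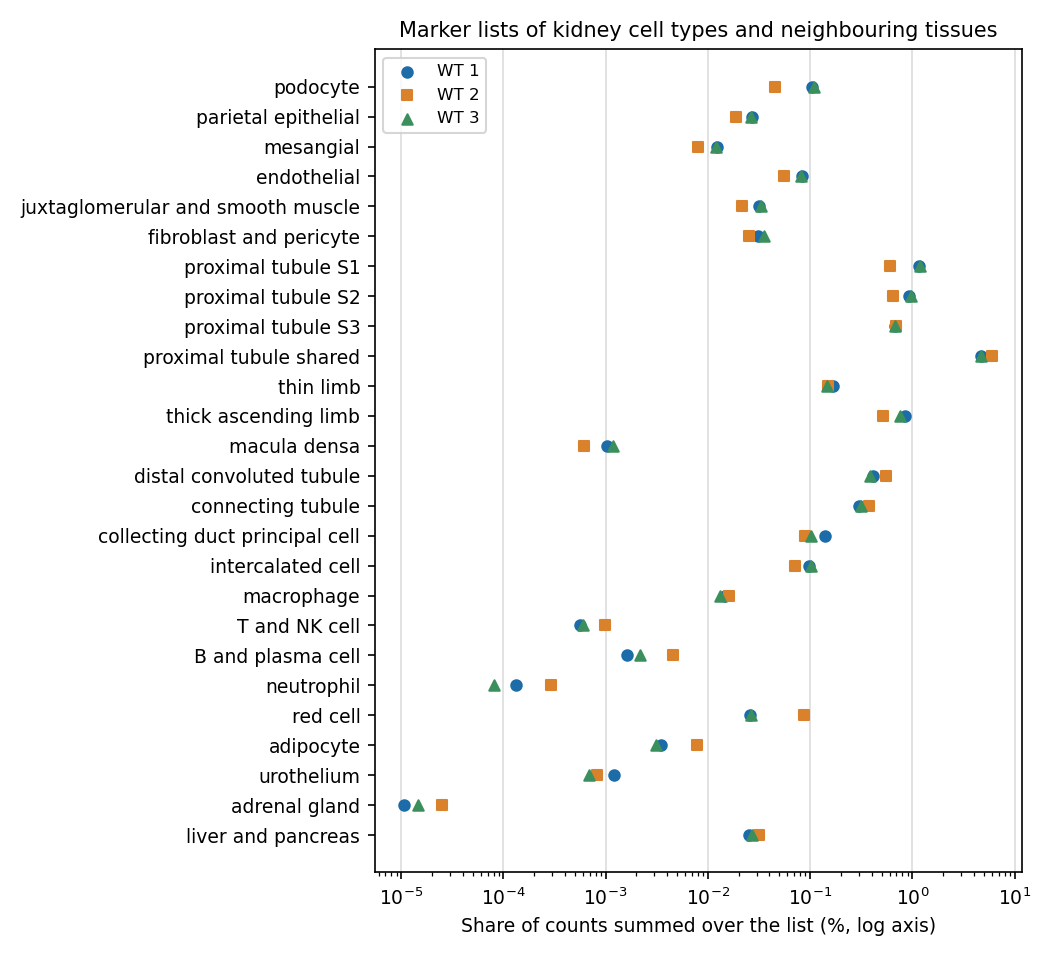
Share of counts (x axis, percent, log scale) summed over each marker list, with a symbol for each library. Proximal tubule lists lie at the right, between 0.602 and 6.05%, and adrenal and neutrophil lists at the far left, below 0.001% in all 3 libraries.

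Within the proximal tubule, markers of its early (S1), middle (S2) and late (S3) parts each held between 0.602 and 1.19% of counts. The 7 S1 markers took 1.16, 0.602 and 1.19%, of which Slc34a1 alone supplied 71.1% on average. The 5 S2 markers took 0.937, 0.642 and 0.961% and the 9 S3 markers 0.676, 0.692 and 0.680%. The S1 and S2 shares were lowest in WT 2, and the S3 share differed least between the libraries. Napsa, an aspartic protease, led the S3 list at 2588, 3254 and 2256 CPM, and on the same list Atp11a, a lipid flippase, was at 1392, 631 and 1715 CPM and Slc7a13, an acidic amino acid and cystine carrier, at 1080.0, 1072 and 977 CPM. Within this list WT 2 was thus highest for Napsa and lowest for Atp11a.

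Glucose and phosphate carriers were led by the forms of the early tubule. Slc5a2, the high-capacity sodium-glucose cotransporter, was at 823, 423 and 759 CPM, and Slc5a1, the high-affinity form of the late tubule, was at 104, 46.8 and 80.7 CPM. Per kilobase Slc5a2 was 11.2 to 13.3 times as high as Slc5a1 within a library, so the ratio in WT 2 lay between those of the other libraries although both genes were lower there. Slc34a3, the minor sodium-phosphate cotransporter, was at 87.8, 40.5 and 68.8 CPM, and Slc34a1 exceeded it 48.5- to 62.3-fold per kilobase. Of 31 genes of these carrier families, 21 reached a mean of 1 CPM and 7 reached 100 CPM.

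Carriers of organic anions and cations held 0.914, 0.830 and 0.900% of counts, with 14 of 41 genes at or above 100 CPM. Slc22a12, the urate exchanger, led at 2805, 3143 and 2553 CPM and had its highest value in WT 2. Slc22a6 and Slc22a8, the basolateral uptake carriers for organic anions, were at 1436, 858 and 1469 CPM and at 568, 219.9 and 572 CPM. Slc22a6 was 2.48 to 3.83 times as high as Slc22a8 per kilobase. Slc22a16, Slc22a20, Slco6b1, Slco6c1 and Slco6d1 had no count in the 3 libraries, which puts each below the level of 3 counts over the group (0.0263 CPM).

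Amino acid carriers held a smaller share, 0.530, 0.374 and 0.496%. Besides Slc7a13, the list held Slc3a1, the heavy subunit of the cystine transporter, at 890.1, 622 and 849 CPM, and Slc6a18, a neutral amino acid carrier, at 608, 492 and 567 CPM. Slc6a19, the main neutral amino acid carrier of the brush border, was at 392, 215 and 289 CPM. Of the 34 genes of this set with a mean of at least 1 CPM, 29 were lowest in WT 2, against 47.0% of all genes at that level. Their median exon length was 4.79 kilobases, against 4.14 over all those genes.

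Filtered protein is taken up by the receptors megalin and cubilin. Lrp2, which encodes megalin (chromosome 2, 69424340 to 69586065), was at 1532, 398 and 1520.3 CPM, and Cubn, which encodes cubilin, was at 387, 93.3 and 362 CPM. Amn, which anchors cubilin, was at 267, 254 and 231 CPM, and Dab2, the adaptor of megalin, was at 468, 203 and 498 CPM. WT 2 lay far below the other libraries for the 2 long receptor genes, with 16701 and 14935 bases of exons, and close to them for Amn, with 1843 bases. Dab2 was also lower in WT 2. Of the 7 genes of the endocytic receptor list, 5 were lowest in WT 2, against 47.0% of all genes at or above 1 CPM. Their list had a median of 7.34 kilobases of exons, and the part of length was not tested. The ratio of Lrp2 to Cubn per kilobase stayed between 3.54 and 3.82.

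The list of brush border enzymes and their scaffold held 1.22, 1.02 and 1.17% of counts, and 15 of 17 were at or above 100 CPM. Cndp2, at 3079.8, 4484 and 2954 CPM, supplied 30.9% of this on average. It encodes a dipeptidase of the cytosol, so the share is not one of brush border enzymes alone. Mep1a, the meprin alpha subunit, was at 2170.0, 1163 and 2059 CPM, and Ggt1, which cleaves glutathione at the cell surface, at 1971, 1439 and 1865 CPM. Pdzk1, a scaffold of apical transporters, was at 1469, 1133 and 1445 CPM. WT 2 was lowest for 14 of the 17 genes, against 47.0% of all genes at or above 1 CPM, and Cndp2, the highest of them, was one of the exceptions. The 17 genes had a median of 3.56 kilobases of exons, below the 4.14 over all genes at that level.

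In the loop of Henle, thick limb genes led. Besides Umod, Egf, the precursor of epidermal growth factor, was at 1747, 501 and 1688 CPM, and Slc12a1, the sodium-potassium-chloride cotransporter blocked by loop diuretics, was at 1273, 521 and 1074 CPM. Kcnj1, the potassium channel that recycles potassium for it, was at 292, 342 and 284 CPM. Cldn10, a claudin of the paracellular sodium path, was at 291, 526 and 261 CPM and thus highest in WT 2. The macula densa, a small plaque of cells, left faint traces, with Nos1 at 0.805, 0.141 and 0.921 CPM.

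Further along, Slc12a3, the thiazide-sensitive cotransporter of the distal convoluted tubule, was at 618, 229.6 and 618 CPM. Per kilobase Slc12a1 was 3.35 to 4.38 times as high as Slc12a3, and 1.58 to 2.06 times with the longest transcript as length. Calb1, the calcium buffer calbindin of the connecting tubule, was at 639, 563 and 617 CPM, and Klk1, tissue kallikrein, was at 1439.6, 1941 and 1613 CPM. Trpv5, the apical calcium channel, was at 24.3, 12.9 and 27.1 CPM. The distal convoluted tubule list held 0.412, 0.547 and 0.387%, but only 0.135, 0.0613 and 0.141% without Fxyd2, which other segments also express, and WT 2 moved from the highest to the lowest library when Fxyd2 was left out.

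**Figure D4:**
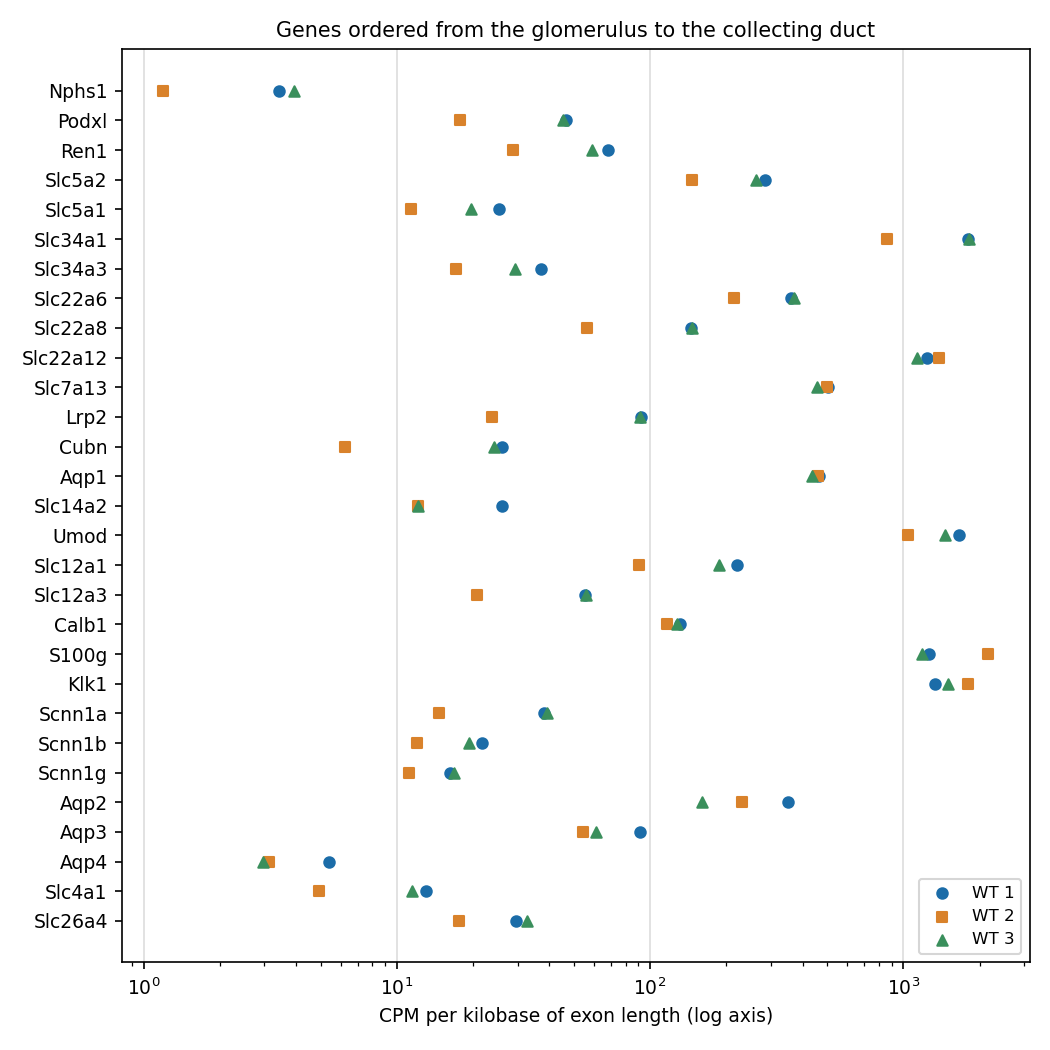
CPM per kilobase of exon length (x axis, log scale) for 29 genes ordered from the glomerulus (top) to the collecting duct (bottom), with a symbol for each library. Slc34a1, Umod, S100g, Klk1 and Slc22a12 lie near or above 1000 and Nphs1 near 1 to 4, and WT 2 lies lowest for most of the genes but highest for S100g, Klk1 and Slc22a12.

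Aquaporins, the water channels, held 0.210, 0.180 and 0.167% of counts. Aqp1, of the proximal tubule and thin limb, was at 1217, 1208 and 1146 CPM, and its 3 values were close. Aqp2, the vasopressin-regulated channel of the principal cell (chromosome 15, 99579055 to 99584547), was at 499, 328 and 228 CPM. Its lowest value was in WT 3 and its highest in WT 1, so it did not follow the division of WT 2 from the other libraries. Aqp3 and Aqp4, the basolateral channels of the same cell, were at 167, 99.4 and 111 CPM and at 33.6, 19.6 and 18.5 CPM, also highest in WT 1. Slc14a2, the urea transporter of the inner medulla, was at 134, 62.6 and 62.8 CPM, again highest in WT 1. Epithelial sodium channel subunits were at 158, 60.4 and 161 CPM for Scnn1a, 57.0, 31.7 and 50.6 CPM for Scnn1b and 48.6, 33.4 and 50.2 CPM for Scnn1g. For these, WT 1 and WT 3 were alike and WT 2 lower. How much inner medulla each piece of tissue held was not measured, and its part in these values was not tested.

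Markers of intercalated cells, which secrete acid or base, held 0.0987, 0.0711 and 0.102% of counts over 14 genes, all with a mean above 10 CPM. Atp6v0a4, a proton pump subunit, led at 328, 223 and 323 CPM. Slc26a4, the apical chloride-bicarbonate exchanger pendrin of base-secreting cells, was at 92.1, 54.7 and 101 CPM, and Slc4a1, the basolateral exchanger of acid-secreting cells, was at 64.0, 24.0 and 56.2 CPM. Red cell precursors also express Slc4a1. Slc26a4 was 2.27 to 3.58 times as high as Slc4a1 per kilobase.

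Glomerular transcripts were a minor part of the libraries. The 16 podocyte markers held 0.105, 0.0458 and 0.109% of counts, and 15 of them were lowest in WT 2, against 47.0% of all genes at or above 1 CPM. Their median exon length was 6.67 kilobases, against 4.14 over all those genes. Nphs1, which encodes the slit diaphragm protein nephrin (chromosome 7, 30458315 to 30487223), was at 22.6, 7.93 and 26.0 CPM. In WT 2 this was 282 counts, with a 95% Wilson interval of 7.06 to 8.91 CPM, which lies below the intervals of the other libraries. Podxl, the surface sialoprotein podocalyxin, was at 255, 97.2 and 248 CPM and Wt1 at 10.7, 4.70 and 10.8 CPM. Col4a3 and Col4a4, chains of the mature glomerular basement membrane, were at 141, 40.9 and 168 CPM and at 275, 83.2 and 271 CPM. These 2 collagen genes are also expressed by tubule cells, so they mark podocytes only in part.

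Endothelial markers held 0.0842, 0.0552 and 0.0810%, led by Plvap, of fenestrated capillaries, at 226, 152 and 193 CPM and Eng, a co-receptor for transforming growth factor beta, at 160.0, 75.4 and 145 CPM. Ren1, which encodes renin and was the highest juxtaglomerular marker but for the widely expressed kinase gene Mylk, was at 113, 47.9 and 97.8 CPM. Fibroblast and pericyte markers held 0.0312, 0.0250 and 0.0353%, with Col1a1 at 25.4, 6.66 and 29.5 CPM and Pdgfra at 16.1, 12.2 and 19.7 CPM. Laminins held 0.0339, 0.0123 and 0.0357% and collagens 0.141, 0.0490 and 0.149%, and all 11 laminin genes and 23 of 26 collagen genes at or above 1 CPM were lowest in WT 2, against 47.0% of all genes at that level. These are long genes, with a median of 9.68 and 7.65 kilobases of exons against 4.14 over all genes at that level.

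Immune cell markers were low. Csf1r, the receptor of macrophage growth factors, was at 64.5, 35.1 and 60.5 CPM, C1qa, a complement gene of tissue macrophages, at 16.2, 25.6 and 13.7 CPM, and Adgre1, which encodes F4/80, at 5.96, 5.90 and 4.53 CPM. No T and NK cell marker reached 2 CPM on average, and the 10 of them summed to 5.64e-04, 9.78e-04 and 6.06e-04% of counts. Neutrophil markers summed to 1.32e-04, 2.92e-04 and 8.00e-05%, with Elane at no count. Hemoglobin genes, which report blood left in the tissue, stood out in WT 2: the 4 genes held 0.0188, 0.0833 and 0.0202% of counts. Hbb-bs was at 124, 634 and 141 CPM and Hba-a1 at 35.9, 99.1 and 31.3 CPM, and near-identical hemoglobin copies can share reads. The hemoglobin genes are short, at a median of 0.736 kilobases, and short genes as a class were higher in WT 2, so the 2 differences moved together and their parts were not separated.

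Markers of tissues that adjoin the kidney were nearly absent, apart from a few genes that kidney cells may also express. Of 11 adrenal markers, 6 (Cyp11b1, Cyp11b2, Cyp21a1, Dbh, Pnmt and Th) had no count, and the list summed to 1.07e-05, 2.53e-05 and 1.45e-05% of counts. Among 9 fat cell markers only Fabp4, which capillary endothelium also expresses, reached 1 CPM (34.6, 78.1 and 30.8 CPM). The other 8 summed to 3.76e-05, 2.81e-05 and 5.58e-05%, and Adipoq, the adiponectin gene, was at 0, 0 and 0.0727 CPM. Urothelium markers summed to 0.00122, 8.24e-04 and 6.84e-04%, with Upk1a at 2.98, 2.19 and 1.99 CPM. Of the liver and pancreas list, Ttr, the thyroxine carrier transthyretin, was at 102, 117 and 143 CPM and Cela1, an elastase, at 105, 155 and 89.0 CPM, while Alb was at 8.88, 5.15 and 10.3 CPM and the acinar genes Cpa1, Prss1 and Try4 had no count.

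Genes of energy metabolism held a large share of counts. The 37 mitochondrially encoded genes held 3.97, 1.50 and 3.57% of counts, and the 118 symbols matching nuclear genes of oxidative phosphorylation held 2.97, 4.48 and 2.86%. In WT 1 and WT 3 the mitochondrial genome contributed more counts than the nuclear set, and in WT 2 fewer. Several mitochondrial genes had almost no counts, as given below, so the mitochondrial sums may be too low. The comparison is thus one of counts and not of transcript levels. mt-Co1, a cytochrome oxidase subunit, was at 8027, 2276 and 7789.8 CPM, and mt-Cytb, of complex III, at 7036, 2310.4 and 6571 CPM. Cox4i1, a nuclear subunit of the same oxidase as mt-Co1, was at 1163, 2411 and 1090.3 CPM and Atp5b, the catalytic subunit of ATP synthase, at 4095, 4169 and 3899 CPM. Of the 104 nuclear genes at or above 1 CPM, 101 were highest in WT 2, against 44.0% of all genes at that level, and their median exon length was 1.53 kilobases. Of 13 mitochondrial protein genes 6 were above 100 CPM, all of them lowest in WT 2. The 8 mitochondrial protein genes at or above 1 CPM are short too, at a median of 1.09 kilobases. WT 2 was lowest for 6 of these 8, highest for 1 and between the others for 1. Most of them thus did not follow the direction of other short genes.

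Several mitochondrial genes had almost no counts. mt-Co2, another subunit of cytochrome oxidase, was at 0.322, 0.0562 and 0.291 CPM, mt-Co3 at 1.21, 0.309 and 0.630 CPM and mt-Atp6 at 1.13, 0.169 and 0.873 CPM. These lie downstream of mt-Co1 in the mitochondrial genome, yet mt-Co1 exceeded them by more than 1000-fold per kilobase in each library. How reads that match several places, or overlap neighbouring genes, were counted is not given in the sources used here, so these low values cannot be read as low transcript levels.

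Genes of fatty acid oxidation and glucose synthesis were well represented. Fatty acid oxidation genes held 0.783, 0.746 and 0.820%, with Acadm, the medium-chain dehydrogenase of mitochondria, at 837, 1063 and 889 CPM. Genes of the tricarboxylic acid cycle held 1.02, 0.973 and 1.02%, and all 19 were above 100 CPM. Fbp1, fructose bisphosphatase, was at 1293, 1283 and 1410.5 CPM with close values, whereas Pck1, the controlled step of glucose synthesis, was at 1060.3, 603 and 1668 CPM and G6pc, which releases free glucose, at 461, 335 and 784 CPM. Pck1 and G6pc were highest in WT 3 and lowest in WT 2.

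Glycolysis genes held 0.710, 0.607 and 0.651% of counts. Ldhb, the lactate dehydrogenase of oxidative tissues, was at 1217, 1462 and 1214 CPM and Ldha at 927, 785 and 783 CPM, and Ldhb was 2.77 to 3.93 times as high per kilobase (1.83 to 2.59 with the longest transcript). Gapdh, the dehydrogenase often used as a reference gene, was at 725, 527 and 692 CPM. Hk1, the hexokinase of most tissues, was at 165, 59.9 and 141 CPM, while Hk2, its insulin-responsive relative, was at 0.215, 0.169 and 0.485 CPM. Gapdh can share reads with its many pseudogenes.

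Redox and detoxifying enzymes formed another large block. The 20 selenoprotein genes of the list held 3.85, 4.79 and 3.72% of counts, 71.5% of that from Gpx3, and only the gut peroxidase gene Gpx2 had no count. Cytochrome P450 genes held 1.16, 0.898 and 1.14%, led by Cyp4b1, a fatty acid and foreign compound hydroxylase, at 4609, 3433 and 4906 CPM, Cyp2j5, an arachidonic acid epoxygenase, at 1826, 1697 and 1802 CPM and Cyp2e1, which oxidizes ethanol, at 1802, 1378 and 1688 CPM. Of 134 symbols of that family, pseudogenes included, 50 had no count and 42 reached 1 CPM. Conjugating enzymes that add glucuronide or sulfate held 0.481, 0.538 and 0.489%, with Ugt3a2 at 1707, 1616 and 1707 CPM. Prdx5, a peroxiredoxin, was at 1872, 3307 and 1729 CPM, and Gpx4, the lipid peroxide reductase, at 326, 859.7 and 311 CPM, both highest in WT 2. Counts within the P450 and glucuronosyltransferase families could be shared between near-identical members.

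Ribosomal protein genes were higher in WT 2 than in the other libraries. The 92 cytosolic ribosomal protein symbols held 1.19, 2.47 and 1.11% of counts, and all 89 at or above 1 CPM were highest in WT 2, against 44.0% of all genes at that level. Their median exon length was 1.73 kilobases, against 4.14 over all genes at that level. Eef1a1, which brings aminoacyl-tRNA to the ribosome, was at 3466, 6791 and 3192 CPM, and Eef2, which moves the ribosome along, was at 2254, 1579.8 and 2050.3 CPM. Eef1a1 was higher and Eef2 lower in WT 2 than in the other libraries. Their exon lengths, 2493 bases for Eef1a1 and 3324 for Eef2, fall in the same class of exon length. The classes thus do not separate these genes, and the part of length in their opposite directions was not tested.

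The kidney is also an endocrine organ, and the genes of its hormones spanned a wide range. Kl, which encodes the FGF23 co-receptor Klotho, was at 1093, 395 and 1135 CPM, Pth1r, the parathyroid hormone receptor, at 914, 1018 and 863 CPM, and Vdr, the vitamin D receptor, at 355, 126 and 304 CPM. Cyp27b1, which makes active vitamin D, was at 1.23, 1.18 and 2.69 CPM, and Cyp24a1, which degrades it (chromosome 2, 170482708 to 170497145), was at 229.9, 27.6 and 25.9 CPM. For Cyp24a1, WT 1 lay far above both other libraries, while for Cyp27b1 WT 3 was the highest. Epo, the erythropoietin gene of interstitial cells, was at 9.04, 7.59 and 7.03 CPM, all 3 values within a narrow range. Ace, which makes angiotensin II, was at 391, 192 and 438 CPM, and WT 2 was the lowest library for all 9 genes of the renin-angiotensin list at or above 1 CPM, against 47.0% of all genes at that level. These 9 had a median of 2.79 kilobases of exons, against 4.14 over all genes at that level. The part of length in their direction was not tested.

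Transcription factors of tubule identity were well above 1 CPM. Hnf4a, a nuclear receptor of the proximal tubule, led the 28 listed factors at 963, 792 and 984 CPM, followed by Maf at 358, 219.8 and 433 CPM and Esrra, a regulator of mitochondrial genes, at 176, 307 and 169 CPM. WT 2 was lowest for 24 of the 28, against 47.0% of all genes at or above 1 CPM, and highest for Esrra. The 28 factors had a median of 4.97 kilobases of exons, against 4.14 over all genes at that level. Hnf4a was 92.9 to 94.7 times as high per kilobase as its relative Hnf4g, a ratio that hardly differed between the libraries.

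Ybx1, the gene under study in the series, encodes a cold shock protein that binds RNA and DNA. It was at 1152, 1556 and 1163 CPM, rank 66 by mean CPM, and WT 2 was the highest library (chromosome 4, 119277981 to 119294604). Ybx3, its closest relative with expression in the adult kidney, was at 62.1, 63.0 and 63.5 CPM and differed little, and Ybx2, a germ cell form, was at 9.85, 9.56 and 8.78 CPM. Per kilobase Ybx1 was 22.2 to 30.0 times as high as Ybx3. Lin28a and Lin28b, cold shock domain genes of embryonic cells, had no count. Pseudogenes of Ybx1 could share its reads.

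Sex-linked transcripts had a male pattern in all 3 libraries. Of the Y chromosome genes expressed in most male cells, Ddx3y was at 31.6, 39.9 and 34.4 CPM, Eif2s3y at 25.9, 36.8 and 28.6 CPM, Uty at 22.0, 29.1 and 25.3 CPM and Kdm5d at 11.8, 10.8 and 12.0 CPM. Xist, which silences an X chromosome in female cells, had no count in any library, and neither had Sry, Usp9y, Zfy1 and Zfy2. Of 11 genes listed as higher in male kidney, 10 had a mean of at least 100 CPM and 1 was under 1 CPM, with Slco1a1, an organic anion carrier, at 362, 517 and 527 CPM. Of 7 listed as higher in female kidney, 2 reached 100 CPM, and Cyp4b1, whose place on that list is uncertain, held 87.5% of its counts.

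Injury, stress and proliferation genes spanned a wide range. Of 16 tubular injury genes 12 reached a mean of 1 CPM and 2 reached 100 CPM, of 18 immediate early genes 14 and 1 did so, and of 47 heat shock genes 39 and 14. Havcr1, the tubular injury marker KIM-1, was at 1.42, 2.73 and 1.60 CPM, and Lcn2, which encodes the injury marker NGAL, at 2.25, 2.59 and 1.55 CPM. Spp1, osteopontin, which healthy distal tubules also make, was at 769, 722 and 679 CPM, and Clu, clusterin, at 489.6, 298 and 415 CPM. Of 17 cell cycle genes 2 reached 10 CPM, Pcna and Mcm2, which serve DNA replication, while Mki67, a marker of dividing cells, was at 0.698, 0.534 and 2.76 CPM and so highest in WT 3. Fos was at 0.349, 0.253 and 0.0970 CPM and Egr1 at 4.88, 1.29 and 2.93 CPM, immediate early genes that rise within minutes of disturbance, whereas Jund, a more constant member of that class, was at 206, 178 and 187 CPM. Complement genes held 0.0713, 0.0729 and 0.0708%, led by Cfb, factor B of the alternative pathway, at 349, 273 and 341 CPM.

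By gene class, protein-coding genes held 97.1, 96.3 and 97.1% of counts, processed pseudogenes 0.597, 0.879 and 0.592% and long intergenic RNAs 0.140, 0.216 and 0.146%. Malat1, a nuclear long noncoding RNA, was at 67.6, 42.1 and 90.1 CPM and Neat1, the scaffold of paraspeckles, at 12.9, 58.7 and 32.4 CPM. Chromosome 11 held the largest share, 10.1, 9.76 and 9.96%, of which Gpx3 made up 29.6% on average. Chromosome 6 held 6.71, 8.62 and 6.81%, of which Kap made up 36.5% on average, and its share was highest in WT 2. A pair of genes thus weighed visibly on the shares of whole chromosomes.

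The spread between libraries was large and rested mostly on WT 2. Over the 9373 genes with a mean of at least 10 CPM, the median coefficient of variation (CV, the SD divided by the mean) was 22.6%, with quartiles at 12.2 and 35.3%. It was 5.32% over WT 1 and WT 3 alone, for genes with a mean of at least 10 CPM in these libraries. The biological coefficient of variation, edgeR's estimate of the spread beyond counting error, was 0.301 over the 3 libraries. It was 0.0946 without WT 2, again with the filter applied to the libraries kept. Higher expression brought only a little less spread: the median CV was 24.6% at 1 to 10 CPM and 17.6% at 1000 CPM or more, where counting error alone gives a median of 8.68 and 0.395%. WT 2 was the highest library for 3917 and the lowest for 4773 of the 9373 genes, which is 92.7% of them, against 43.8% for WT 1 and 63.5% for WT 3.

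This spread was ordered by gene length. Genes with under 1000 bases of exons had a median log2 ratio of CPM (0.01 CPM added) of 0.91 between WT 2 and WT 1, and those with 8000 bases or more of -0.70, from 324 and 1729 genes. Between WT 2 and WT 3 the medians were 0.99 and -0.87, and between WT 3 and WT 1 they were -0.07 and 0.15. Over the 9208 genes with a length, the Spearman correlation of the log2 ratio with exon length was -0.57 for WT 2 against WT 1, -0.63 for WT 2 against WT 3 and 0.41 for WT 3 against WT 1, as a description over genes that share their libraries. RNA integrity was checked by the submitters, but its values were not used here, and the part of RNA quality in this order was not tested. Counts of no pair of libraries agreed within sampling noise, as the chi-square per degree of freedom was 446 for WT 2 against WT 1, 487 for WT 2 against WT 3 and 28.4 for WT 3 against WT 1.

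**Figure D5:**
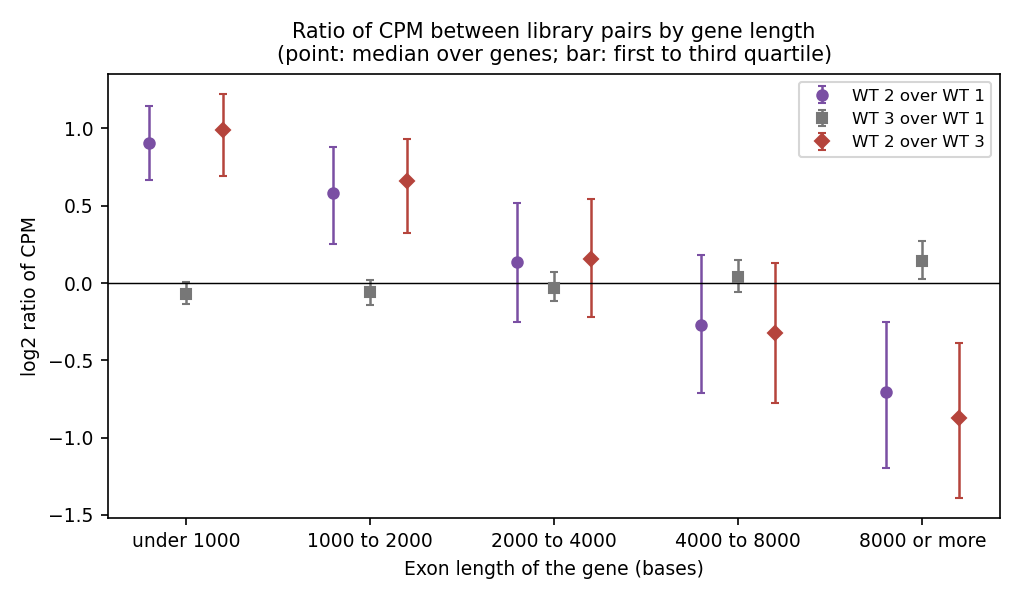
Median log2 ratio of CPM (y axis) between each pair of libraries for genes in classes of exon length (x axis, bases), with bars from the first to the third quartile over genes. The medians run from 0.91 to -0.70 for WT 2 over WT 1 and from 0.99 to -0.87 for WT 2 over WT 3, and those of WT 3 over WT 1 stay between -0.07 and 0.15.

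Some genes varied far beyond this order. Among named genes with a mean of at least 10 CPM, Cyp24a1 had the highest CV (124%), followed by Bcl6 at 8.67, 6.47 and 64.3 CPM (124%). Bcl6, a transcriptional repressor that STAT5 signaling lowers, was high in WT 3 alone. Hbb-bs, Clec2d, a lectin-like receptor ligand, and Hbb-bt came next and were highest in WT 2. Irs2, the insulin receptor substrate induced by fasting in liver, was at 70.4, 8.44 and 26.1 CPM and highest in WT 1. Hspa1b, an inducible heat shock protein, was at 9.34, 3.85 and 21.3 CPM. The long genes Kmt2a, a histone methyltransferase (13.3, 3.91 and 24.8 CPM), and Spen, a transcriptional corepressor (35.2, 7.87 and 57.2 CPM), were low in WT 2, while Zfas1, a noncoding host gene of small nucleolar RNAs (6.76, 22.8 and 7.40 CPM), was high there.

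Between WT 1 and WT 3 alone, the genes with the highest CV were partly others (10 genes by this order, chosen after their values were seen). Cyp24a1, Bcl6, Irs2 and Hspa1b stayed among the 10 highest and were joined by Cish, a STAT5-induced inhibitor of cytokine signaling, at 66.3, 30.1 and 22.2 CPM, Neat1, Depp1, a FOXO-induced gene, at 24.8, 11.5 and 10.3 CPM, Jarid2, of the Polycomb complex, at 22.7, 22.8 and 49.5 CPM, and the collecting duct genes Aqp2 and Slc14a2. These are single libraries, and no condition in the labels separates them.

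The steadiest genes were of moderate level. Slc30a6, a zinc transporter of the Golgi, was at 19.5, 19.5 and 19.5 CPM, with a CV of 0.0687% where counting error alone gives 3.67%. The other 9 of the 10 lowest CVs, Dhrs1, Pim3, Echdc1, Nqo2, Gpbp1, Hgd, Znrf2, Brf1 and Vrk3, were between 0.272 and 0.386%. Hgd, which degrades homogentisate from tyrosine, was the highest of them at 476, 473 and 472 CPM. In all, 194 of the 9373 genes had a CV below that of counting error alone, so CVs this low cannot be told from counting error. Exon lengths of these 10 genes ran from 2427 to 7788 bases, inside the classes of middle length.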

How the data were processed

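Whole-number read counts per gene symbol were deposited by the authors in 2 tables, and the 3 wild-type columns of 1 of them were used. The labels' protocols give the RNeasy Mini kit for RNA, poly(A) selection on beads and the ScriptSeq v2 kit for libraries. Tools named in the submitters' processing notes, with no role attached, are STAR 2.7.3a, featureCounts 2.0.1, DESeq2 1.30.0, Trim Galore 0.6.3, FastQC 0.11.9 and MultiQC 1.10.1, and the build is mm10. How strand and multiply matching reads were handled is not given in the sources used here, so values of overlapping genes, antisense genes and near-identical copies are uncertain.

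CPM were computed from library totals with Python 3.11.15 and pandas 2.3.3, with no further scaling. Exon lengths came from GENCODE release 21 for mouse, in which 49833 of 52182 symbols matched a single gene. The 2349 others held 1.24, 1.48 and 1.23% of counts. Promoter sequences came from RefSeq (GRCm38.p6). The biological coefficient of variation came from edgeR 4.0.16 in R 4.3.3 on the counts. No groups were compared and no test was made. Levels are set by depth: 3 counts correspond to 0.0805, 0.0844 and 0.0727 CPM in WT 1, WT 2 and WT 3.

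Genes named were the 25 highest by mean CPM, the 10 highest per kilobase, the 4 highest and the undetected members of each of 70 gene lists, the 10 highest and 10 lowest by CV at a mean of at least 10 CPM, the highest gene of each chromosome group, and Ybx1, Kap, Umod, Nphs1, Lrp2, Slc34a1, Aqp2, Havcr1 and Lcn2. Predicted genes and pseudogenes were not named for their CV. Not every gene this rule gives is printed, some genes are not reported here, and other list members and ratios are printed for their known roles, chosen after their values were seen. The members and lists were chosen with earlier results of these data known. Alternatives were TMM and RLE scaling, other filters, the longest transcript as length, leaving out mitochondrially encoded genes, the wild-type columns of the other table, and leaving out each library.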

Additional observations from a re-analysis of the deposited data

How the results depend on the processing

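Leaving out each library in turn gave a median CV of 5.32 to 27.0% and a biological coefficient of variation of 0.0946 to 0.376, the lowest of each without WT 2. The filter of 10 CPM was then applied to the mean of the libraries kept, so the genes were not all the same. Without a filter on low counts the median CV was 35.2%. Without mitochondrially encoded genes the 100 highest genes held a mean of 26.5% of counts in place of 28.0%, and 4 of 68 gene lists and 16 of 272 named genes moved by more than 1 SD. With the longest transcript as length, the median log2 ratio for genes of 8000 bases or more was -1.08 for WT 2 over WT 1, 0.22 for WT 3 over WT 1 and -1.32 for WT 2 over WT 3. The cause was not tested. Under TMM and RLE scaling all 278 named genes stayed within 1 SD, and so did all 278 genes and 70 lists with the wild-type columns of the other deposited table, in which 3 of 52163 shared symbols had other counts. The scaling factors lay between 0.986 and 1.02, and the other table holds the same libraries, so means could move little. These alternatives therefore say nothing on the differences between libraries. No paired analysis was possible because no groups were compared. Genes under 3 counts in a library are at the limit of its depth.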
